A study of Mus musculus with 8 samples.

Results

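The histone genes studied here are those of the core and linker histones whose transcripts are made mainly during DNA replication, together with 5 replacement variants. They were taken from the gene names in the scanner files: every probe named Hist1h, Hist2h, Hist3h or Hist4h with a suffix, and the probes of H1f0, H2afx, H2afz, H3f3a and H3f3b. This gave 58 of 41174 non-control probes and 39 of 27845 gene names, of which 36 were among the 14572 genes tested. The tested genes were 5 of 6 H1, 10 of 11 H2A, 7 of 8 H2B, 3 of 3 H3 and 6 of 6 H4 genes, 31 replication-dependent genes in all, and the 5 variants. Hist1h1t, Hist1h2ac and Hist1h2be were not tested because none of their probes was bright enough.

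Stromal cells cultured from lymph nodes of BALB/c mice, the fibroblast-like scaffold cells of the node, were transfected by lipofection with 400 pmol of siRNA against Eif4g3 or of a control siRNA, and collected 48 h later. Eif4g3 encodes a scaffold protein of the eIF4F complex, which brings ribosomes to capped mRNAs. RNA of the whole lysate (total RNA, 4 arrays) and of the heavy polysome fractions of a sucrose gradient, which hold mRNAs carrying many ribosomes (4 arrays), was hybridised to 2-colour arrays with RNA after Eif4g3 siRNA in Cy5 and matching RNA after control siRNA in Cy3. No array had the dyes exchanged, so a change of a transcript and a dye bias of its probe cannot be told apart. Cells for the gradients were pooled, and no label says that the replicates were separate cultures, so the p-values measure the spread between these arrays, which may be technical.

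Histones package DNA: H2A, H2B, H3 and H4 form the nucleosome core, and H1 binds the linker DNA between cores. Most mRNAs of the replication-dependent genes carry no poly(A) tail and end in a stem-loop bound by SLBP, which serves their processing, translation and decay. The mRNAs of most, but not all, replacement variants are instead only polyadenylated and made throughout the cell cycle. SLBP reaches the translation machinery through adaptor proteins with MIF4G folds, among them that of Mif4gd, and eIF4G proteins are part of that machinery. The labelling kits used for such arrays prime from poly(A), so transcripts without a tail may be copied only in part.

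Promoters of these genes share short sequence elements, and windows of RefSeq (build GRCm38.p6), each 250 bases before to 50 bases after a start of transcription, were found for 31 of the 39 gene names. The H1 box AAACACA, searched on both strands like every motif here, lay in 5 of 6 H1 windows, against 2 of 10 H2A, 2 of 5 H2B and 0 of 6 H3 and H4 windows and 7.18% of all 32851 windows in the table. The octamer ATTTGCAT lay in 6 of 10 H2A and 3 of 5 H2B windows, in none of the 12 H1, H3 and H4 windows, and in 1.74% of all windows. CCAAT was found in 25 of 27 replication-dependent windows and 37.4% of all windows, and TATAAA in 18 of 27 and 13.6%. Among the 4 variant windows, 1 held the H1 box, 1 the octamer, 3 CCAAT and 1 TATAAA. Within a window of these genes no match overlapped another, and a match is a description of the letters only. The windows of the H2A gene Hist1h2aa and the H2B gene Hist1h2ba overlap on opposite strands. A match in their shared bases therefore counts for both classes.

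The bases before the start of 4 genes are printed because they set the gene with the lowest adjusted p in heavy polysome RNA (Hist1h1c) beside another H1 gene (Hist1h1e), the called variant (H3f3a) and an H3 gene near 0 (Hist1h3d). Capitals mark the matches. On GRCm38.p6 they lie at chr13:23738557-23738806 (plus strand), chr13:23622559-23622808 (minus), chr1:180813606-180813855 (minus) and chr13:23575513-23575762 (plus), in that order, and each is written along the gene's own strand.
Hist1h1c: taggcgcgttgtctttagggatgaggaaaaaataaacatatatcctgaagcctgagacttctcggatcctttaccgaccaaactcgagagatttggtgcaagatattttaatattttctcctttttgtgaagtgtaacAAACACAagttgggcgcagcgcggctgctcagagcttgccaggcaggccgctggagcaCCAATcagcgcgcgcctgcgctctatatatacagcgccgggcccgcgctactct
Hist1h1e: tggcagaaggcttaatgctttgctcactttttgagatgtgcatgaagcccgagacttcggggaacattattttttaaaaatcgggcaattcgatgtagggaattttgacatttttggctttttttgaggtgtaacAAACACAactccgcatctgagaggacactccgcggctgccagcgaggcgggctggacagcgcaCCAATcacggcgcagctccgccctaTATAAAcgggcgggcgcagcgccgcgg
H3f3a: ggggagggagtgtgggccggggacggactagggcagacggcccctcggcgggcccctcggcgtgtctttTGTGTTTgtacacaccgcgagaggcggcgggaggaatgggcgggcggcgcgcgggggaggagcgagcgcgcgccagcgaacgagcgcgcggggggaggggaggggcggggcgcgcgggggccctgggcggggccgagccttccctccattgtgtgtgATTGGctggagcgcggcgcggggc
Hist1h3d: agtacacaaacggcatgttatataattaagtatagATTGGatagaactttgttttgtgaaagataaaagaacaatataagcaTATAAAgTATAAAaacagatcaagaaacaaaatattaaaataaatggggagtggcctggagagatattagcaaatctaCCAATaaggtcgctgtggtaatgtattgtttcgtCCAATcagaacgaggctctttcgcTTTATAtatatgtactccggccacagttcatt
Both H1 genes have the H1 box, starting 112 and 115 bases before the start, and CCAAT at 54 and 52 bases. The H3f3a window holds the H1 box and CCAAT letters on the opposite strand and, like that of Hist1h1c, lacks TATAAA. The Hist1h3d window holds CCAAT and TATAAA at 3 places each.

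The knockdown was visible on every array. For Eif4g3 itself, the log2 ratio of knockdown over control was -2.48, -1.81, -1.94 and -2.05 on total RNA arrays 1 to 4. Heavy polysome arrays 1 to 3 gave -3.16, -2.24 and -2.43, and array 4 was the least negative of that fraction (mean of all 4 -2.46 ± 0.50, SD). The transcript was thus 4.20-fold lower in total RNA (adjusted p = 0.00207, limma) and 5.49-fold lower in heavy polysome RNA (adjusted p = 6.23e-04). Of the stromal markers fixed for the cells, 11 of 12 on the array were well above background on all 4 control channels of total RNA, and 0 of 5 B cell, 1 of 6 endothelial, 2 of 6 macrophage, 3 of 6 T cell and 1 of 3 epithelial markers were. Of the macrophage markers, Csf1r and Cd68 were above background on all 4, Aif1 on 3, and Emr1, Itgam and Ptprc on none. Heavy polysome arrays 1 and 3 and total RNA array 4 agreed least with the other arrays of their fraction over all genes (mean r 0.289, 0.318 and 0.326), while heavy polysome arrays 2 and 4 had r = 0.883. These 3 arrays enter all results, and values without them are given where they matter.

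In total RNA no histone gene passed the test. Log2 ratios of the 36 genes ran from -0.38 to 0.61 with a median of 0.15, against -0.04 over all tested genes, and 29 of 36 lay above the median of all genes. At an adjusted p under 0.05, 4.37% of all genes were called (1.67% higher and 2.7% lower) and 0 of 36 histone genes. At an unadjusted p under 0.05 were 5 histone genes, 4 of them higher. Of all genes 22.0% were under it in either direction, and 1153 of 14572 were under it and higher. Counted against 0, 27 of 36 were higher with loess normalisation, but 3 of 36 when each array was centred on the median of all its spots, where the median of all tested genes was -0.78 and 23 of 36 histone genes lay above it. In bulk RNA, more transcript per cell and more cells carrying the transcript cannot be told apart.

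In heavy polysome RNA 2 histone genes rose, the linker histone gene Hist1h1c and the H3.3 gene H3f3a. The share called over all genes was 8.87%, with 4.83% higher and 4.04% lower. The median of the 36 histone genes was 0.19, against 0.02 over all tested genes, with 27 of 36 above that median. At an unadjusted p under 0.05 were 11 of the 36, all higher. Of all genes 25.4% were under it in either direction, and 1970 of 14572 were under it and higher. The 2 called genes belong to different classes, and their arrays were ordered differently from those of most other histone genes.

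Hist1h1c, which encodes a somatic H1 subtype, is read by a probe at chr13:23747614-23747673 on mm8, the build of the probe coordinates. Its log2 ratios were 0.89, 0.48, 0.63 and 0.53 on heavy polysome arrays 1 to 4. Total RNA arrays 1 to 4 gave 0.25, 0.25, 0.29 and 0.41. All 8 values were above 0, and every heavy polysome value exceeded every total RNA value. The mean was 0.63 ± 0.18 (SD, n = 4) in heavy polysome RNA, a 1.55-fold rise (95% interval 0.43 to 0.84, adjusted p = 0.00551, limma). In total RNA it was 0.30 ± 0.07 (SD, n = 4) with an adjusted p of 0.0921, and this was 0.0460 without heavy polysome array 1 and 0.0419 with the slide as a random block. The difference between the fractions, 0.33 (95% interval 0.05 to 0.62), did not pass the test (adjusted p = 0.848).

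H3f3a, 1 of 2 genes for the replacement histone H3.3, is represented by a probe at chr1:182639321-182639380 on mm8. Heavy polysome arrays 1 to 4 gave 0.72, 0.41, 0.88 and 0.27, and total RNA arrays 1 to 4 gave 0.28, 0.20, 0.46 and 0.08. All were above 0, and the ranges of the fractions overlapped. The mean rise was 0.57 ± 0.28 (SD, n = 4) in heavy polysome RNA, or 1.49-fold (adjusted p = 0.0174, limma), and the mean was 0.26 ± 0.16 in total RNA (adjusted p = 0.229). This call is less firm than that of Hist1h1c. With the mean of its 3 probes the heavy polysome value was 0.31 (adjusted p = 0.0901), with the values deposited by the authors 0.41 (0.0643), in a fit of that fraction alone 0.57 (0.0750), and without the 3 arrays of lowest correlation 0.34 (0.0562). When each array was centred on a median, no histone gene was called in heavy polysome RNA (Hist1h1c 0.65, adjusted p = 0.117, and H3f3a 0.60, adjusted p = 0.128, with the median of the tested genes), and 198 of all genes were called.

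**Figure D1:**
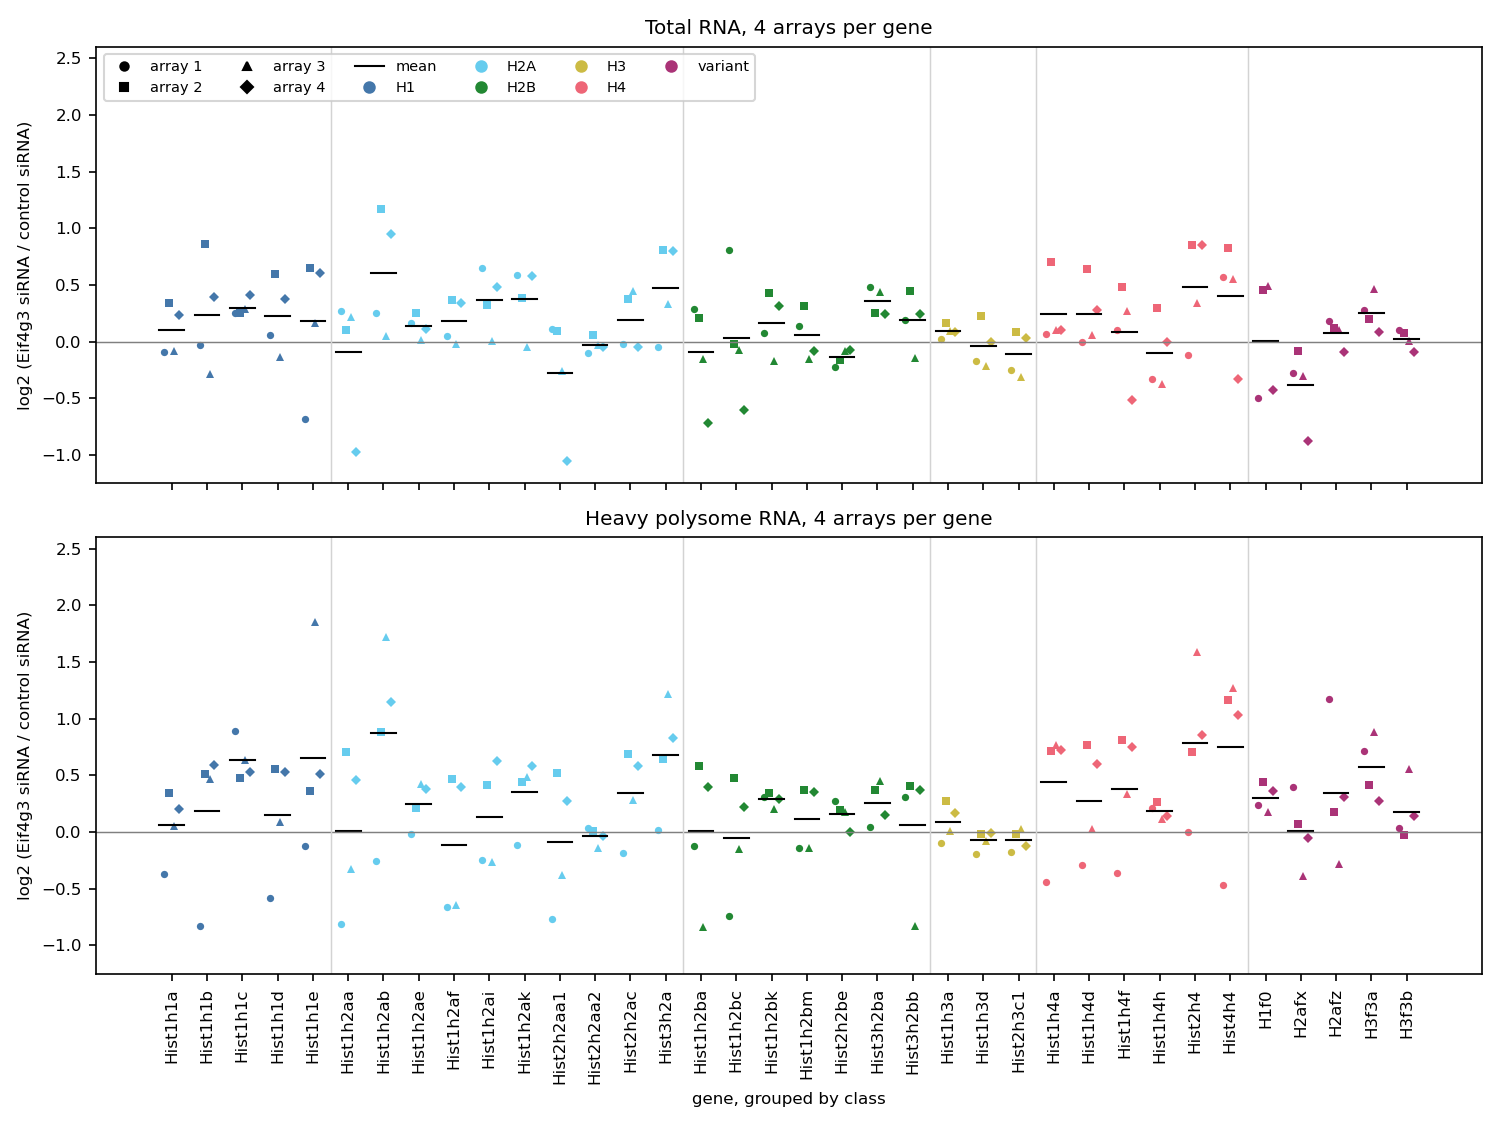
Log2 ratio of Eif4g3 siRNA over control siRNA for each of the 36 tested histone genes on the y axis, in total RNA (upper panel) and heavy polysome RNA (lower panel), with genes along the x axis grouped by class. Symbols are the 4 arrays of a fraction and black bars their mean; the circles of heavy polysome array 1 lie lowest for 22 of the 31 replication-dependent genes, while Hist1h1c, H3f3a and Hist3h2ba have all symbols above 0 in both panels.

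Among the linker histones, all 5 tested H1 genes had means above 0 in both fractions with loess normalisation, while centring on all spots turned the sign in total RNA for 24 of the 36 histone genes. The H1 medians were 0.22 for total RNA and 0.19 for heavy polysome RNA. Hist1h1e had the highest heavy polysome mean, 0.65, from values of -0.13, 0.36, 1.85 and 0.51, with array 3 far above the others. Its SD of 0.85 left it short of the threshold (adjusted p = 0.213). Hist1h1a was lowest in both fractions, with means of 0.10 and 0.06. Hist1h1t, named for its testis-specific H1, was above background on 0 of the 16 array channels.

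The means of the H2A genes spread widest. Among the probes chosen to represent genes, that of Hist1h2ab had the highest mean of all histone genes in both fractions. Heavy polysome arrays 1 to 4 gave -0.25, 0.88, 1.72 and 1.15, and total RNA arrays 1 to 4 gave 0.25, 1.17, 0.05 and 0.95. The means were 0.88 ± 0.83 (SD, n = 4, adjusted p = 0.0923) and 0.61 ± 0.54 (adjusted p = 0.252, limma). Array 1 was the only heavy polysome array below 0, and total RNA arrays 1 and 3 were far below arrays 2 and 4. Hist2h2aa1 had the lowest H2A mean in total RNA (-0.28 ± 0.55), set by -1.06 on array 4, and Hist1h2af the lowest in heavy polysome RNA (-0.11 ± 0.62). The median of the 10 H2A genes was 0.19 in each fraction, with 7 of 10 above 0.

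For the 7 H2B genes the median was 0.05 in total RNA, against 0.11 in heavy polysome RNA. Hist3h2ba came closest to the threshold in total RNA, at 0.48, 0.25, 0.44 and 0.25, all above 0 (mean 0.35 ± 0.12, SD, n = 4, adjusted p = 0.0666). Its adjusted p was 0.0425 without heavy polysome array 1, 0.0454 without heavy polysome array 3 and 0.0297 with the slide as a random block. The values deposited by the authors gave a mean of 1.37 (adjusted p = 0.0345, limma), and centring on the tested genes 1.01 (adjusted p = 0.0792). The probe of Hist3h2ba was dim, with a mean log2 level of 6.32 in Cy3 of total RNA. It was well above background on 14 of 16 array channels. The only histone gene listed for the Hist3h2bb probe is that of Hist3h2ba, so these 2 may not be separate readings. That probe was brighter, with a mean log2 level of 12.04 in Cy3 of total RNA. It read 0.19, 0.45, -0.14 and 0.25 in total RNA (mean 0.19 ± 0.25, SD, n = 4, adjusted p = 0.629, limma). Hist1h2bk was highest in heavy polysome RNA and had close replicates, at 0.31, 0.35, 0.20 and 0.29 (mean 0.29 ± 0.06, adjusted p = 0.120). Hist2h2be was lowest in total RNA, at -0.23, -0.16, -0.09 and -0.07, and 3 of its 4 heavy polysome values, 0.27, 0.19, 0.18 and -0.00, lay above 0. The difference of 0.30 (95% interval 0.04 to 0.56) had an unadjusted p of 0.0282 and an adjusted p of 0.848. Hist1h2bc had the lowest heavy polysome mean of the class, -0.05 ± 0.53.

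The 3 H3 genes had means between -0.11 and 0.09 in both fractions. Hist1h3a had a mean of 0.09 in each fraction. Its probe was dim, with a mean log2 level of 6.44 in Cy3 of total RNA, and was well above background on 11 of 16 array channels. Hist2h3c1 was at -0.11 in total RNA. Hist1h3d was at -0.07 ± 0.09 (SD, n = 4) in heavy polysome RNA, with all 4 values between -0.20 and -0.01. The 95% interval of Hist1h3d, -0.29 to 0.14, leaves out a rise of the size measured for Hist1h1c. The class had the smallest spread in heavy polysome RNA, a median SD of 0.09 against 0.49 for replication-dependent genes and 0.26 for all genes. Hist1h3d and Hist2h3c1 are read by probes that list 4 and 3 H3 genes.

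All 6 H4 genes had heavy polysome means above 0, from 0.19 for Hist1h4h to 0.79 for Hist2h4, with a median of 0.41. The protein is the same for these genes, and probes of Hist1h4a, Hist1h4d and Hist1h4f list 3 or 4 H4 genes each. Hist2h4 gave -0.00, 0.71, 1.59 and 0.86 on heavy polysome arrays 1 to 4, and on total RNA arrays 1 to 4 the values were -0.12, 0.85, 0.34 and 0.85. Array 1 was lowest in each fraction, and the ranges overlapped. Its means were 0.79 ± 0.65 (SD, n = 4, adjusted p = 0.0699) and 0.48 ± 0.47 (adjusted p = 0.270, limma). Hist1h4h, whose probe lists no histone gene, was lowest in total RNA, at -0.10 ± 0.31.

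Of the other variants, H1f0, the linker histone H1.0 of cells that stop dividing, had heavy polysome values of 0.24, 0.44, 0.18 and 0.36, all above 0, and total RNA values of -0.50, 0.45, 0.49 and -0.43. Its heavy polysome mean was 0.30 ± 0.12 (SD, n = 4, adjusted p = 0.303), and the mean of its 3 probes, 0.40, had an adjusted p of 0.0338. H2afz, the gene of H2A.Z, a variant found at promoters, ranged from -0.28 to 1.18 in heavy polysome RNA because array 1 stood far above the others. Its mean was 0.35 ± 0.61 (adjusted p = 0.287). H3f3b, the other H3.3 gene, was at 0.04, -0.03, 0.56 and 0.15 in heavy polysome RNA (0.18 ± 0.26, adjusted p = 0.329). H2afx encodes H2A.X, which is phosphorylated at DNA breaks. It was below 0 on all 4 total RNA arrays, at -0.28, -0.08, -0.30 and -0.87 (mean -0.38 ± 0.34, adjusted p = 0.171), and at 0.01 ± 0.32 in heavy polysome RNA. The median of the 5 variants was 0.02 in total RNA, against 0.30 in heavy polysome RNA. The difference between variants and replication-dependent genes was not tested.

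Most replication-dependent genes moved together from array to array. Their median log2 ratio was 0.07, 0.34, -0.03 and 0.11 on total RNA arrays 1 to 4. On heavy polysome arrays 1 to 4 it was -0.17, 0.46, 0.12 and 0.40, while the median of all genes stayed between -0.05 and 0.05. Of the 31 genes, 29 were above 0 on total RNA array 2, 29 on heavy polysome array 2 and 8 on heavy polysome array 1. Heavy polysome array 1 was the lowest of its fraction for 22 of 31 genes (71.0%), as it was for 28.3% of all genes, and total RNA array 2 was the highest for 21 of 31 (67.7%, against 22.5%). H1 genes went from a median of -0.37 on heavy polysome array 1 to 0.48, 0.47 and 0.53 on arrays 2 to 4, and H4 genes from -0.33 to 0.74, 0.55 and 0.73. The 5 variants went the other way on array 1, where all were above 0 with a median of 0.40, as was Hist1h1c at its highest value. Heavy polysome arrays 1 and 2 lay on the same slide.

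**Figure D2:**
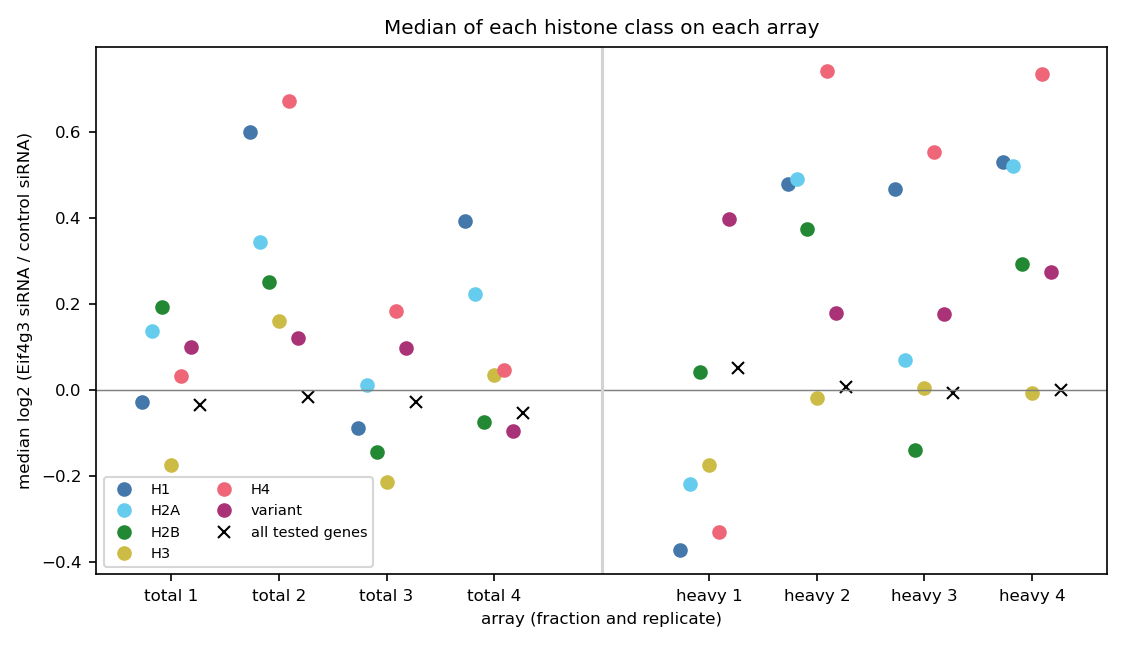
Median log2 ratio of Eif4g3 siRNA over control siRNA on the y axis for each class on each of the 8 arrays along the x axis, with all tested genes as crosses. On heavy polysome array 1 the H1 and H4 medians are -0.37 and -0.33 and the variant median is 0.40, while on arrays 2 and 4 the H1, H2A, H2B and H4 medians are all above 0.

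The number of histone genes called in heavy polysome RNA differed most, among the fits that left out 1 array, without heavy polysome array 1. Without it, 9 of the 36 passed the test in heavy polysome RNA, all higher, where 8.73% of all genes were called and 4.25% were called higher. They were Hist1h1c, H3f3a, Hist1h2ab, Hist1h2ak, Hist2h2ac, Hist3h2a, Hist1h4a, Hist2h4 and Hist4h4, at log2 ratios of 0.50 to 1.25 and adjusted p-values of 0.0113 to 0.0481 (limma). The largest values among the H4 genes were 1.16 for Hist4h4 and 1.05 for Hist2h4. With all arrays Hist4h4 had values of -0.47, 1.16, 1.27 and 1.04 and an adjusted p of 0.127, so array 1 was the only one below 0. Without all 3 arrays of lowest correlation, a choice made after the data were seen, 14 of 36 passed in heavy polysome RNA, all higher, where 16.3% of all genes were called and 8.67% were called higher, and the 2 arrays left there were those with r = 0.883. H3f3a was not among the 14. In total RNA 4 of 36 passed without the 3 arrays, Hist1h1c, H3f3a, Hist3h2ba and Hist4h4, where 21.7% of all genes were called and 8.75% were called higher. Leaving out heavy polysome array 1 also moved the shared estimate of spread, and Hist1h1c and Hist3h2ba then passed in total RNA, where 9.07% of all genes were called and 3.15% were called higher. With the slide as a random block the same 2 genes passed in total RNA, where 10.1% of all genes were called and 3.68% were called higher. In heavy polysome RNA 6 passed with that block, H3f3a, Hist1h1c, Hist1h2ab, Hist1h2bk, Hist2h4 and Hist3h2a, where 17.9% of all genes were called and 9.66% were called higher.

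The channels of heavy polysome array 1 did not share equally in its low ratios. In the control channel (Cy3), single-channel log2 levels of the replication-dependent genes stood above their own mean over the 4 heavy polysome arrays by a median of 0.58, and 28 of 31 genes were above it. In the Eif4g3 siRNA channel (Cy5) that median was 0.06, with 18 of 31 above. All tested genes had medians of -0.02 and 0.02. The variants were at -0.31 in Cy3 and -0.25 in Cy5. The control channel of this array also had the fewest probes well above background, 37.7% of all and 40 of the 58 histone probes, against 49 of 58 in Cy5. What part this has in the low ratios was not tested.

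On total RNA array 2 the class medians were raised in both channels for H1, H2A and H4 genes, but not for H2B, H3 and variant genes. Replication-dependent genes stood above their means over the total RNA arrays by a median of 0.40 in Cy3 and 0.64 in Cy5, and H4 genes by 0.96 and 1.35. H2B genes were at -0.18 in Cy3 and 0.06 in Cy5, H3 genes at -0.07 and 0.20, and variants at -0.09 and 0.06. Hist1h2ab had Cy3 levels of 7.48, 10.84, 8.74 and 9.41 on total RNA arrays 1 to 4, a range of 3.36 on the log2 scale, and its Cy5 levels of 7.73, 12.01, 8.78 and 10.36 followed them. H4 genes had a median range of 1.95 in Cy3 of total RNA, against 0.75 for all tested genes, 0.45 for H3 genes and 0.60 for variants. Total RNA array 2 was also the array read with another version of the scanner software.

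**Figure D3:**
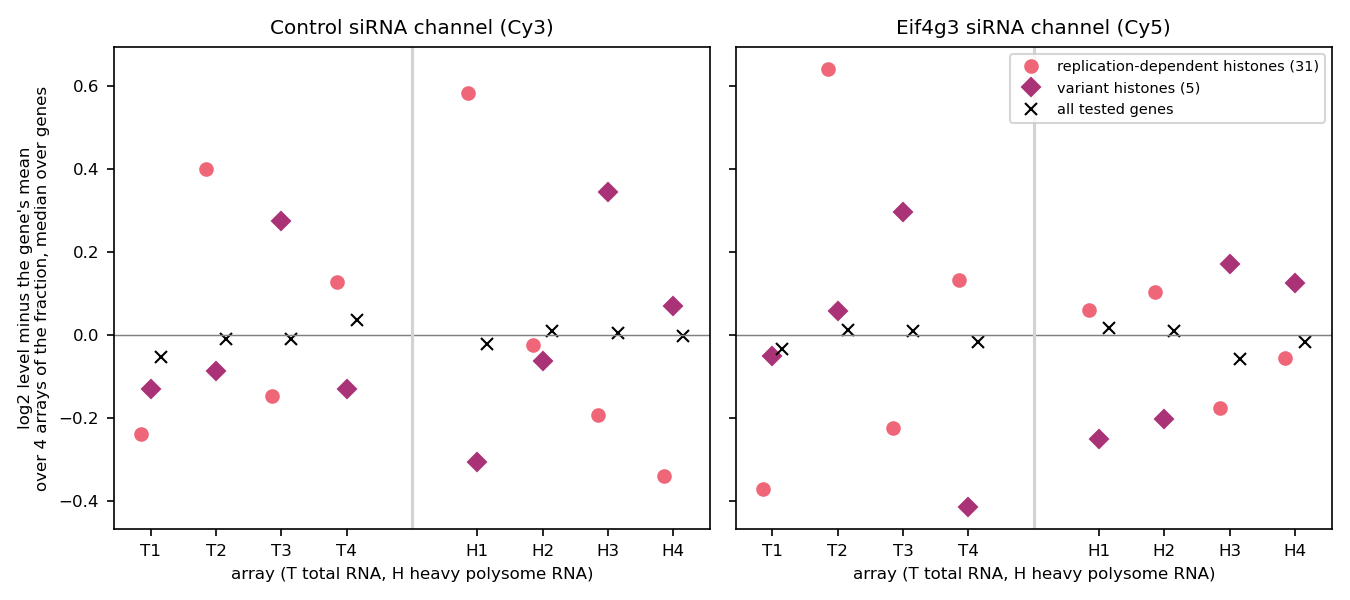
Single-channel log2 level minus the gene's mean over the 4 arrays of its fraction, as the median over genes on the y axis, for the control siRNA channel (left) and the Eif4g3 siRNA channel (right) on each array along the x axis. Replication-dependent histones stand at 0.58 on heavy polysome array 1 in Cy3 and at 0.06 there in Cy5, and at 0.40 and 0.64 on total RNA array 2; all tested genes stay between -0.06 and 0.04.

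Probes of the same gene often differed. In 8 genes, 12 further probes passed the filter, and 1 of them, for Hist1h2bk, had the sign of the representing probe on all 8 arrays. For H3f3a the representing probe had a heavy polysome mean of 0.57, while a probe whose start lies 78 bases away on mm8 had 0.08 and one 9221 bases away 0.27. On heavy polysome array 3 the values were 0.88, -0.42 and -0.23, so the probes parted most there. Hist1h1d was represented by a probe at 0.15 ± 0.53 (SD, n = 4) in heavy polysome RNA. Its other probe lies 1751 bases downstream, further than the 776 bases of the RefSeq gene. That probe read 0.89, 0.49, 0.43 and 0.40, was above 0 on all 8 arrays, and passed the test in a fit of every probe by itself (0.55 ± 0.22, adjusted p = 0.0151, limma). Like Hist1h1c, it was highest on heavy polysome array 1, where the representing probe was at -0.58. For Hist1h4d the heavy polysome means of the probes were 0.27 and 0.88. Which transcripts these probes bind, beyond the listings in the files, was not tested.

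**Figure D4:**
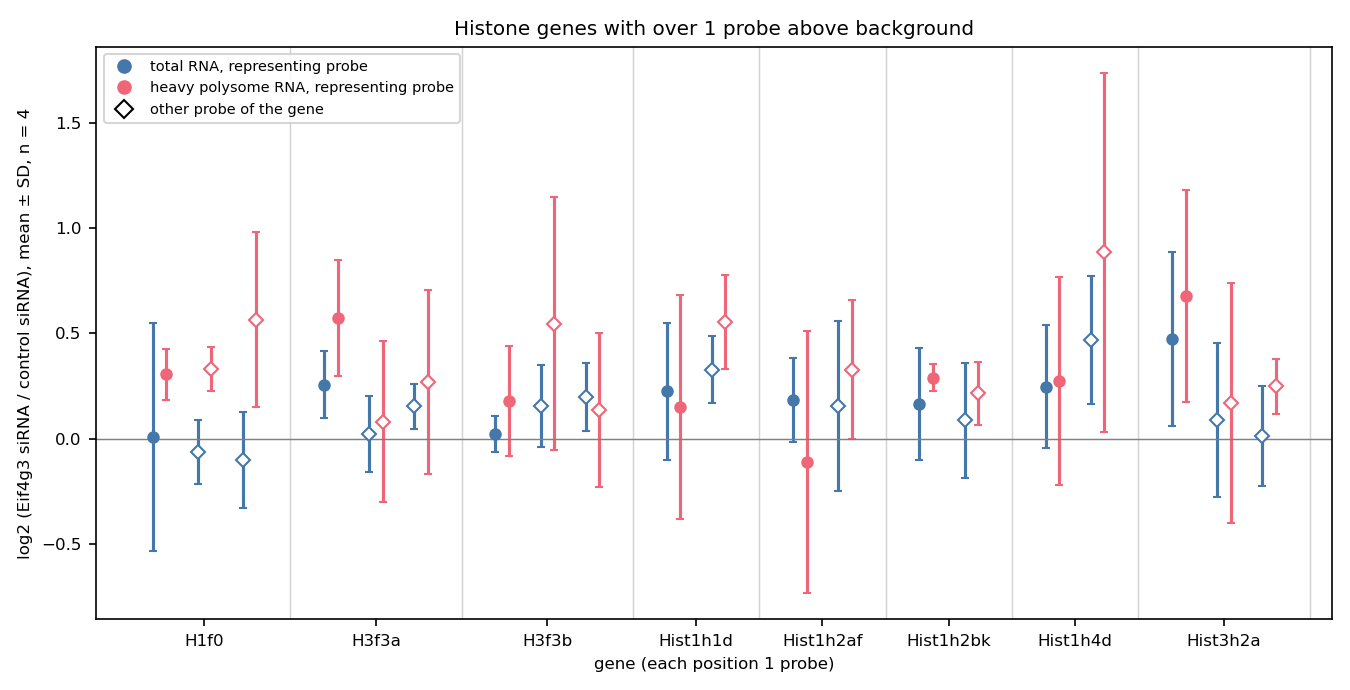
Mean log2 ratio of Eif4g3 siRNA over control siRNA (y axis, error bars SD, n = 4 arrays) for each probe above background of the 8 histone genes with over 1 such probe (x axis), in total RNA (blue) and heavy polysome RNA (red). Filled circles are the probes that represent a gene and open diamonds its other probes; the H3f3a probes stand at 0.57, 0.08 and 0.27 in heavy polysome RNA and those of Hist1h1d at 0.15 and 0.55.

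Many probes cannot separate near-identical genes. The files list over 1 histone gene for 13 of the 58 probes, up to 4, and 11 of the 31 replication-dependent genes are represented by such a probe. These 11 had a median of 0.16 in total RNA, against 0.21 for the 18 whose probes list 1 gene, and in heavy polysome RNA the medians were 0.13 and 0.22. The remaining 2, Hist1h4h and Hist2h2aa2, have probes that list no histone gene. That of Hist2h2aa2 was well above background on 7 of 16 array channels. Hist1h2aa and Hist1h2ba, named for histones of the testis, were well above background on all 16 array channels, and their heavy polysome means were 0.01 ± 0.70 and 0.01 ± 0.63 (SD, n = 4). Across the 58 probes, 39 were well above background on all 16 array channels and 6 on none.

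Heavy polysome RNA was also set against total RNA within each siRNA. No histone gene passed in control cells, where 2.19% of all genes were called (0.0137% higher and 2.18% lower), nor in Eif4g3 siRNA cells, where 0.151% were, and no histone gene had an unadjusted p under 0.05 in either. In control cells the log2 ratio of heavy polysome over total RNA ran from -0.78 for Hist1h2bc to 0.42 for Hist2h3c1, with a median of -0.09 against -0.02 for all genes, and 25 of 36 were below 0. All 6 H4 genes were below 0 (median -0.17), as were 8 of 10 H2A genes (-0.24), while H3f3b was at 0.36 and H1f0 at 0.22. In Eif4g3 siRNA cells the median was 0.05, the H4 genes were at 0.07 and the variants at 0.43. The signs of these medians rest on single arrays. Without total RNA array 2 the histone median in control cells was 0.03, with 20 of 36 above 0, and with any 1 array left out it ran from -0.24 to 0.03. In Eif4g3 siRNA cells it ran from -0.08 without total RNA array 1 (13 of 36 above 0) to 0.30 without total RNA array 2 (28 of 36). The median half-width of the 95% interval was 0.61 in control cells and 0.68 in Eif4g3 siRNA cells, wider than the class medians given here.

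**Figure D5:**
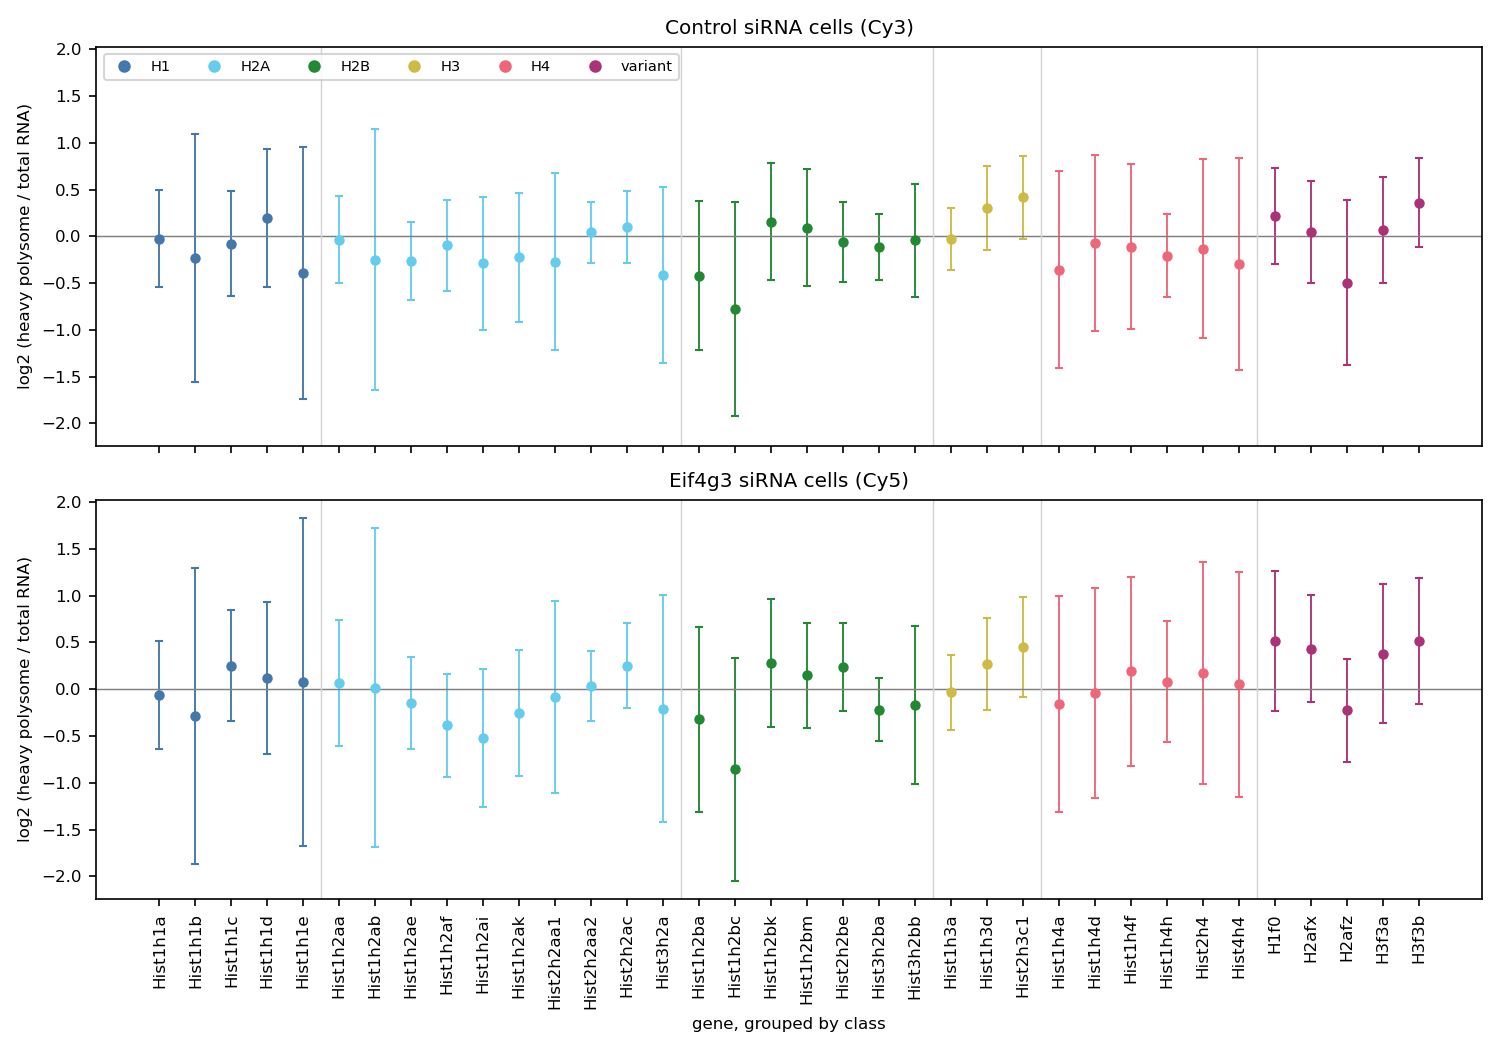
Log2 ratio of heavy polysome over total RNA (y axis) with its 95% interval from limma for each of the 36 histone genes (x axis, grouped by class), in control siRNA cells (upper panel) and Eif4g3 siRNA cells (lower panel), n = 4 arrays per fraction. Every interval includes 0; Hist1h2bc lies lowest in both panels and Hist2h3c1, H3f3b and H1f0 are among the highest in control cells.

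The change in heavy polysome RNA minus that in total RNA passed the test for 0 of 36 histone genes and for 0 of 14572 genes, while 2 histone genes, Hist1h1c and Hist2h2be, and 761 of all genes had an unadjusted p under 0.05. All 5 variants and all 6 H4 genes had differences above 0, as had 62.3% of all genes. Their medians were 0.30 each, against 0.06 for all genes. The 95% intervals of these genes had a median half-width of 0.48 for variants and 0.64 for H4 genes. Another probe of H3f3b had a difference of -0.06.

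Further genes were read from 4 lists: genes that act on histone mRNAs, histone chaperone and deposition genes, other histone variants and S phase genes. None of their genes passed in total RNA (3 of 15, 9 of 24, 1 of 6 and 7 of 40 at an unadjusted p under 0.05, in the order below, against 22.0% of all genes). Of 15 tested genes for 3' processing, translation and decay of histone mRNAs, 1 rose and 2 fell in heavy polysome RNA, where the list's median was 0.06. Over all genes, 4.83% were called higher and 4.04% lower in that fraction. How the calls of list genes depend on the processing was not tested. Upf1, the RNA helicase of nonsense-mediated decay that also serves histone mRNA decay, read -1.16, -0.61, -0.79 and -0.62, all below 0 (mean -0.80 ± 0.25, SD, n = 4, adjusted p = 0.00690). Sympk, a scaffold of the 3' cleavage complex, read -1.08, -0.73, -0.59 and -0.58 (-0.75 ± 0.23, adjusted p = 0.0109). Lsm1, of the decapping-activating ring, read 0.81, 0.29, 0.31 and 0.25 (0.42 ± 0.26, adjusted p = 0.0413, limma). In control cells Lsm1 was also lower in heavy polysome than in total RNA. Slbp itself ranged over -1.17 to 0.44 on the total RNA arrays and -0.68 to 0.67 on the heavy polysome arrays, and its means of -0.23 and 0.06 did not pass. Mif4gd had a heavy polysome mean of 0.38 ± 0.43 (adjusted p = 0.169).

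Among 24 histone chaperone and deposition genes, 1 rose and 3 fell in heavy polysome RNA, with a list median of -0.10. The shares over all genes were 4.83% higher and 4.04% lower. The H3-H4 chaperone Asf1a rose by 0.47 ± 0.14 (SD, n = 4, adjusted p = 0.0179), with all 8 values above 0 over both fractions. Ubn1, of the HIRA complex that deposits H3.3, fell by 0.63, from -1.11, -0.40, -0.62 and -0.38 (adjusted p = 0.0297, limma). Supt16h, of the FACT complex, fell by 0.34, and the histone importin Ipo4 by 0.32. Of 6 further variant genes, H2afv, a second H2A.Z gene, rose, with 0.45, 0.41, 0.95 and 0.51 (0.58 ± 0.25, adjusted p = 0.0215). The 40 S phase genes had a median of 0.06, and 2 of them rose and 0 fell. Among those that rose was Dut, which removes dUTP, at 0.37 ± 0.13 (SD, n = 4, adjusted p = 0.0334, limma). The DNA clamp gene Pcna had a mean of -0.05 in total RNA, against 0.04 in heavy polysome RNA.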

How the data were processed

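RNA of Eif4g3 siRNA and control siRNA cells was compared on 8 Agilent 2-colour arrays. Per the file headers, the deposited scanner tables hold spot and background signals as intensity, read with Agilent Feature Extraction 10.7.3.1 on 7 arrays and 10.5.1.1 on total RNA array 2, and the processed ratio on a log10 scale. The values deposited by the authors hold log2 of Cy5 over Cy3. They were within 0.01 of the processed ratio for at least 99.786% of 41174 probes per array. Array medians ran from -0.21 to 0.30, so these values were not centred.

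Mean signals were corrected with normexp (offset 50) and normalised within arrays by loess (span 0.3). Control and marked spots had no weight. Spots of a probe were averaged and the probe of highest mean signal represented a gene, under the name on total RNA array 1. Genes entered the tests where, on 3 or more of the 4 arrays of a fraction, either channel of the probe was marked by the scanner software as well above background. Ratios were fitted in limma 3.58.1 (R 4.3.3, data.table version 1.17.8) over all 8 arrays with 1 coefficient per fraction, tested two-sided with Benjamini-Hochberg adjustment over 14572 genes at 0.05. Fractionation used single channels after Aquantile normalisation, heavy polysome against total RNA. Intervals are 95% intervals of the fit. The number of arrays limits precision, and no histone spot was saturated. The fits were tested on simulated data whose noise was independent between genes and arrays. Shifts shared by many genes on an array were not part of that test. Plots used Python 3.11.15 and matplotlib 3.10.9.

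Named were every variant gene, every histone gene past the threshold, the highest and lowest gene of each class per fraction, Eif4g3, and list genes past the threshold, of which 1 is not reported here. Further genes were singled out after their values were seen: Hist1h1d, Hist1h4d, Hist4h4, Hist1h2aa, Hist1h2ba, the genes called under alternatives, Slbp, Mif4gd and Pcna. Members and lists were chosen with earlier results of these data known. Of the 58 probes, 47 matched RefSeq by accession. The alternatives tried were other centring, no background subtraction, the deposited values, other filters and probe rules, the slide as a block, arrays left out, averaging of similar arrays, other single-channel normalisations, a replicate block and a separate-channel model. Same-numbered arrays of the fractions did not deviate together (r from -0.30 to 0.17 over genes), so the numbers were not taken as pairs.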

Additional observations from a re-analysis of the deposited data

Results flagged for a closer look

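Over the 36 histone genes in each fraction, 72 groups of 4 arrays were screened for an array that stood apart from the other three by Dixon's criterion, and 6 were picked, where chance picks about 1 in 20 groups. Heavy polysome array 1 was the low array for 3 genes. Hist1h1b was at -0.83 there against 0.47, 0.52 and 0.60 on the other arrays. Hist1h4a was at -0.44 against 0.72, 0.72 and 0.77, and Hist4h4 at -0.47 against 1.04, 1.16 and 1.27. The H2B gene Hist3h2bb was at -0.83 on heavy polysome array 3, against 0.31, 0.37 and 0.41. In total RNA Hist1h4a was at 0.70 on array 2, against 0.07, 0.10 and 0.10, and Hist1h2aa at -0.98 on array 4, against 0.10, 0.22 and 0.27. No histone gene had all 4 arrays of one fraction above 0 and all 4 of the other below 0. How many of all tested genes had this pattern was not counted.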

How the results depend on the processing

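The count of all genes called in total RNA (637, of which 38.2% higher) was 0 with median centring on all spots, 208 (20.7% higher) with centring on tested genes, 1458 (54.6% higher) with the authors' deposited value table, 1476 with the slide as a random block, 299 with heavy polysome arrays 2 and 4 averaged, 3161 without the 3 arrays of lowest correlation, and 52 to 1321 when 1 array was left out. Histone genes called there (0) were 1 with the deposited table, 1 with the mean of all probes, 2 with the slide block, 4 without the 3 arrays and 0 to 2 with 1 array left out. In heavy polysome RNA the count of all genes (1292, 54.5% higher) was 0, 198 (43.4% higher), 2041, 2604, 439 and 2373 under the same settings, 376 with that fraction alone and 345 to 1527 with 1 array left out. The histone count (2) was 0 with either centring, 1 with the deposited table, 1 with the fraction alone, 6 with the slide block, 14 without the 3 arrays and 2 to 9 with 1 array left out. In control cells the 319 genes called in fractionation were 130 with the 2 arrays averaged, 62 with the replicate block, 0 without the 3 arrays and 67 to 349 with 1 left out. In Eif4g3 siRNA cells the 22 genes were 11 with no filter, 42 above background on all 8 arrays, 41 with the mean of probes, 58 with each probe by itself, 185 with processed signals, 35 with quantile normalisation, 70 with the slide block, 3 with the 2 arrays averaged, 10 with the replicate block, 0 without the 3 arrays, 236 with a separate-channel model and 2 to 82 with 1 left out. The replicate block left the difference between fractions at 0 calls and changed no call of a histone gene in the fractionations and that difference, the comparisons it was run on. With median centring on all spots, total RNA values of H3f3a, Hist1h1c and Hist4h4 turned to -0.63, -0.63 and -0.51. In heavy polysome RNA Hist1h2aa and Hist1h2ba were at -0.18 and -0.16 with the 2 arrays averaged, and Hist1h2af at 0.026 with the deposited table, 0.11 with the mean of probes and 0.43 without the 3 arrays. With 1 array left out Hist1h2aa ran from -0.23 to 0.28, Hist1h2af from -0.30 to 0.072, Hist1h2ai from -0.032 to 0.27 and Hist1h2ba from -0.19 to 0.29. Over the settings run, the median of the histone genes minus that of all genes ran from 0.09 to 0.23 in total RNA, from 0.14 to 0.40 in heavy polysome RNA, from -0.24 to 0.05 and -0.16 to 0.27 in the fractionation of control and Eif4g3 siRNA cells, and from -0.03 to 0.26 for the difference between fractions. The causes of these shifts were not tested.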

Other observations

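On total RNA array 2 the scanner file names 59 histone probes under 41 gene names, where the other 7 arrays name 58 under 39; 4 of its probes are not among the 58, and 3 of the 58 carry another name there. The 2 probes named H2afz lie on different chromosomes of mm8: A_52_P468268, which represents the gene, on chromosome 3, and A_51_P107901, above background on 0 of 16 array channels, on chromosome 6. In control cells, log2 levels of the H2A gene Hist1h2ab and the H1 gene Hist1h1e ranged over 3.36 and 3.15 on the total RNA arrays. Among representing probes, these 2 genes also had the highest values on heavy polysome array 3, at 1.72 and 1.85. The other probe of Hist1h4d read 1.90 there.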
